A study of Mus musculus with 26 samples.

Results

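Knockdown of Mettl14 was compared with its matching scramble control in mouse J1 embryonic stem cells at 0 h, in a second set of 8 arrays, marked by codes in their titles and called the repeat set below. The comparison holds 4 of the 26 arrays of the series, 2 of the knockdown and 2 of the control, chosen by their titles and array codes. The other groups are a Mettl3 knockdown with its own scramble control in the same set, and a time course of 18 arrays with scramble, Mettl14 knockdown and Mettl3 knockdown at 0 h, 4 h and 8 h. The series asks how the RNA mark N6-methyladenosine (m6A) bears on transcripts of developmental regulators in these cells.

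METTL14 and METTL3 are the core pair of the enzyme complex that writes m6A on messenger RNA: METTL3 transfers the methyl group, and METTL14 holds the RNA and stabilises the pair. Reader proteins bind the mark and direct the fate of the transcript, often its decay. Embryonic stem cells come from the inner cell mass, keep a network of pluripotency factors active, and in serum with leukaemia inhibitory factor hold a mostly naive state, from which they can move towards the primed epiblast or, more rarely, towards trophoblast.

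The control cells are given as wild type with a scrambled control, and the knockdown cells as the same J1 line with Mettl14 lowered. All groups grew on irradiated embryonic fibroblasts in serum with the inhibitory factor, and poly(A) RNA was hybridised. The descriptions of the knockdown arrays speak of short hairpin RNA, and the growth protocol of lentiviral delivery with puromycin selection of stable lines. The treatment protocol, worded alike for every array, speaks of small interfering RNA given repeatedly. Which of these the 4 arrays had is not settled by the labels, nor whether a stable line came from 1 clone. The replicates are labelled as biological, without saying from which cultures, so that the p-values measure only the spread between these samples.

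The 3 small interfering RNA targets that the labels list for Mettl14 are shown because they define the small interfering RNA of the labels. Whether the compared arrays had that agent is not settled. Capitals mark target bases 12 to 18 of 19, which pair with bases 2 to 8 (the seed) of the guide strand. Their positions in the transcript were not analysed here.
Mettl14 siRNA target 1: ccggatgtacaGAGGAAAt
Mettl14 siRNA target 2: gggaactcatcAGACTAAa
Mettl14 siRNA target 3: gcacctcggtcATTTATAt
No target shared its seed with another. G and C made up 47.4% of the bases of the first and 42.1% of those of the others.

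Replicate 2 of the scramble control carries a description of 4 h, although 0 h is given by its title, by its source name and by its time field. Across the 14787 genes tested, its difference from replicate 1 correlated at r = -0.00658 with the 4 h change of the time course scramble, and its spread (SD over genes 0.122) was below that of the 4 h change (0.379). It was used as 0 h. The replicate arrays of the repeat set correlated across genes at r = 0.9971 to 0.9975, and the knockdown arrays correlated with their own scramble arrays at 0.982 to 0.983. Without that replicate, 246 of the 278 named genes that passed with all arrays still passed, and their changes moved by a median of 0.03 and at most 0.18 on the log2 scale.

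The targeted transcript was lower in both knockdown arrays. Mettl14 had log2 signals of 8.77 and 8.79 in scramble and 7.60 and 7.25 in the knockdown, a change of -1.36 ± 0.10 (standard error from limma, used for every ± below; adjusted p = 0.000158), which left 39.0% of the control level. The groups did not overlap, and replicate 2 of the knockdown was the lower of the pair. In the 4 arrays of the Mettl3 comparison Mettl14 lay between 8.66 and 8.94.

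Among the other writer subunits, 1 of 6 passed the test, Virma, although both knockdown arrays lay above both controls in each of the 6, as they did in 34.9% of all genes. The only probe set for Mettl3 is shared with Tox4, a chromatin-associated factor, and read 10.83 and 10.76 in scramble and 10.32 and 10.38 in the knockdown. It was lower by -0.45 ± 0.08 (adjusted p = 0.0229 over all 41345 probe sets), whereas a probe set of Tox4 alone changed by -0.09 ± 0.09 and did not pass. Virma, the scaffold of the complex, rose from 9.62 and 9.60 to 9.96 and 9.95 (0.34 ± 0.04, adjusted p = 0.000755). Wtap, Zc3h13, Rbm15, Rbm15b and Cbll1, the remaining regulatory subunits measured, lay between 0.05 and 0.12 and did not pass. Of 10 erasers and readers, 4 rose and 1 fell, beside 19.4% and 16.9% of all genes. The RNA-stabilising reader Igf2bp3 rose by 0.61 ± 0.05, the nuclear reader Ythdc1 by 0.32 ± 0.04, Ythdf3 by 0.21 ± 0.06 and the demethylase Fto by 0.15 ± 0.05, while Hnrnpc fell by 0.16. The calls of Ythdf3, Fto and Hnrnpc were lost with some array left out. The demethylase Alkbh5 (0.03) and the decay-linked readers Ythdf1 (0.01) and Ythdc2 (0.02) did not pass.

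Of the 14787 genes, 2864 were higher (19.4%) and 2494 lower (16.9%) after Mettl14 knockdown, at an adjusted p under 0.05 by limma. Changes of at least 1.5-fold numbered 633 higher (4.28%) and 366 lower (2.48%), and those of at least 2-fold 149 higher (1.01%) and 80 lower (0.541%). Most genes moved little, and 9415 lay within 0.2 of no change on the log2 scale. The median change was -0.00129, and the 1st and 99th percentiles were -0.82 and 1.01. Counts of called list members are read against the shares of 19.4% and 16.9%. The lists were chosen with earlier results of these data known. An excess over these shares can thus be partly built in and is no test. Both knockdown arrays lay above both scramble arrays in 34.9% of genes and below them in 34.4%. Non-overlap of the groups was thus common. Where it is given for a named gene it describes the arrays and adds no support to the call. Without replicate 2 of the scramble control the counts were 2075 and 1646, and those of at least 2-fold changes 149 and 79.

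The largest rise belonged to Nrk, a kinase of the placental trophoblast, with 6.82 and 6.76 in scramble and 9.21 and 9.35 in the knockdown (2.49 ± 0.10, adjusted p = 2.2e-05). Both knockdown arrays were more than 4-fold above both controls. Pmp22, a membrane protein of growth-arrested cells and myelin, followed with 7.69 and 7.73 against 9.94 and 9.96 (2.24 ± 0.09). Other secreted or surface proteins were next. The lymphotoxin subunit Ltb rose by 2.07 ± 0.10, the growth factor Tgfb2 by 1.90 ± 0.06, and Wls, the carrier that brings Wnt proteins to the cell surface, by 1.90 ± 0.08. The ADP-ribosyltransferase Parp8 (1.89), the retinoid-induced receptor Gprc5a (1.89), Vgll3, a cofactor of TEAD transcription factors (1.87), the protease Tmprss2 (1.86) and the scavenger receptor Colec12 (1.83) came after these. The list closes with Amot (1.82), the matrix protein Tinagl1 (1.82), the procollagen protease Bmp1 (1.79), the retrotransposon-derived Rtl8c (1.75) and the small heat shock protein Cryab (1.71). In each of these 15 genes the knockdown arrays lay above both scramble arrays, as the choice of genes required.

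The largest fall was that of Ceacam1, a cell adhesion molecule, from 10.81 and 10.87 to 8.47 and 8.34 (-2.43 ± 0.06, adjusted p = 1.64e-05). Morc1, a germline gene that silences transposons, fell from 9.62 and 9.68 to 7.43 and 7.54 (-2.16 ± 0.06). The secreted phospholipase Pla2g1b read 9.14 and 9.09 in scramble and 7.04 and 7.15 in the knockdown (-2.02 ± 0.08). The knockdown arrays of all 3 lay far below both controls, at 18.6%, 22.3% and 24.7% of the control level. Changes from -1.68 to -1.37 followed in Lrrc2, the trypsin inhibitor Spink1, the germ cell factor Sohlh2, Pdcl2, Ripply1, Nxf3, Ms4a14, the adhesion receptor Adgrd1, Phf11d, Accsl, the kallikrein Klk1 and the testis protease Prss42. Klk1, Nxf3, Ms4a14, Pdcl2, Adgrd1 and Phf11d had in the knockdown a mean below the lowest mean signal that was tested (6.00), Klk1 at 5.26 and 4.83 and Nxf3 at 4.94 and 5.27, as Rtl8c had in scramble, at 5.74 and 5.66.

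**Figure D1:**
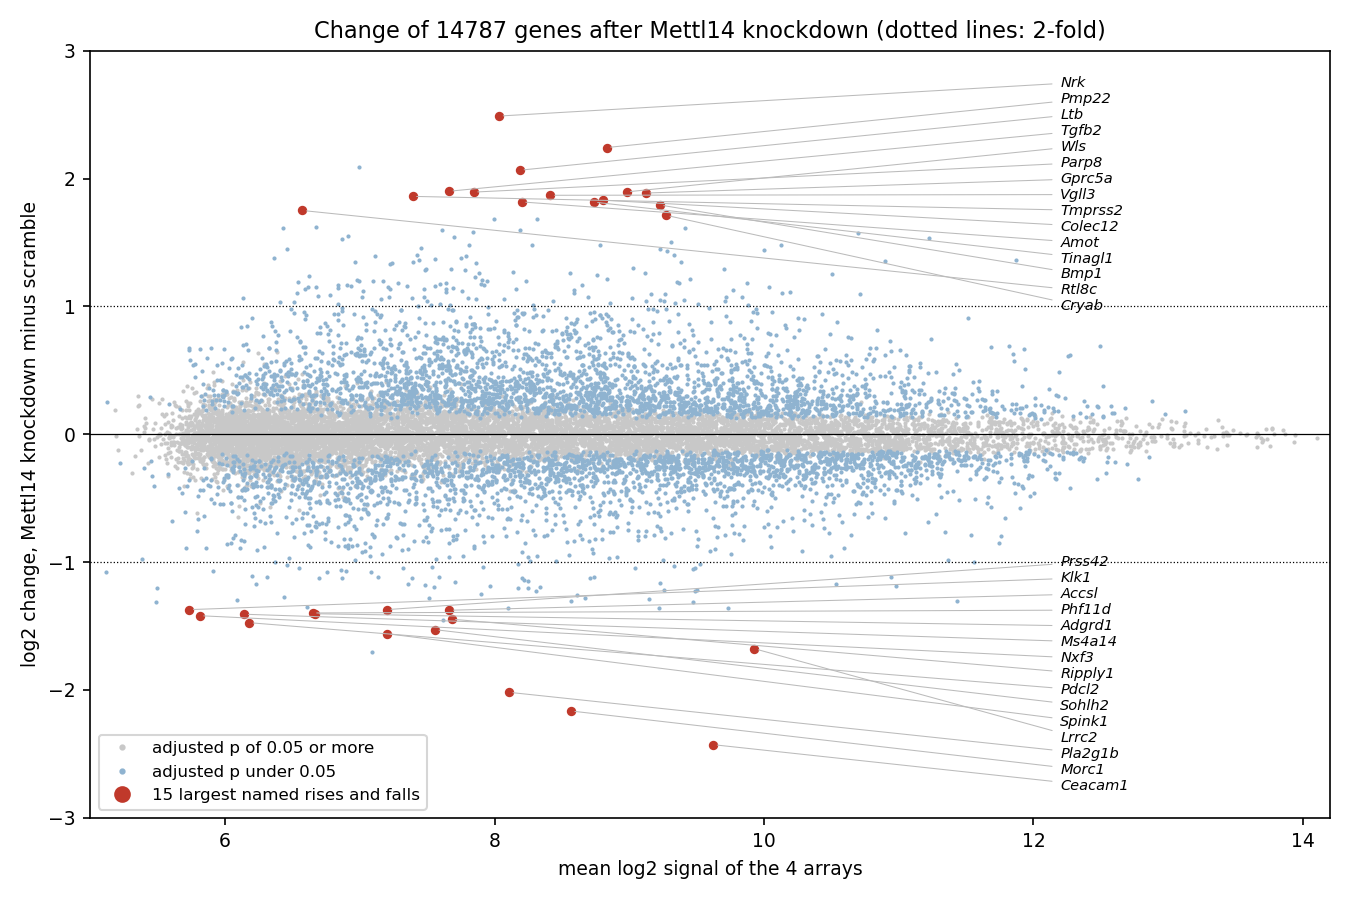
Log2 change after Mettl14 knockdown (vertical axis) against the mean log2 signal of the 4 arrays (horizontal axis), 1 point per gene, blue where the adjusted p is under 0.05, with the 15 largest named rises and falls in red. Nrk tops the rises at 2.49 and Ceacam1 the falls at -2.43, and most genes that pass lie within the dotted 2-fold lines.

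Most pluripotency genes fell. Of 10 core factors tested, 7 fell and 1 rose (median -0.26), and of 28 naive genes, 26 fell and 1 rose (median -0.64), beside a median of -0.00129 over all genes and the shares of 16.9% lower and 19.4% higher. In bulk RNA, fewer cells of a type and less RNA per cell cannot be told apart. Sox2 read 12.52 and 12.45 in scramble and 12.02 and 12.12 in the knockdown (-0.42 ± 0.05), and Nanog 12.72 and 12.71 against 12.52 and 12.47 (-0.22 ± 0.05). Both knockdown arrays were below both controls for each gene, and these defining markers of the stem cell were present in both groups. Pou5f1, the Oct4 gene, read 8.23 and 8.26 against 7.82 and 7.75 (-0.46 ± 0.05). Dppa4, Dppa2, Utf1 and Rif1 fell by 0.53, 0.38, 0.30 and 0.21, Sall4 (-0.10) and Lin28a (0.09) did not pass, and Trim71, a repressor of differentiation transcripts, rose by 0.16 ± 0.04. The calls of Nanog and Trim71 were lost with some array left out.

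Of the naive genes, 6 fell at least 2-fold, and 0 of the core factors did so by limma. Nr0b1, an orphan nuclear receptor of the naive network, went from 12.06 and 12.12 to 10.78 and 10.80 (-1.30 ± 0.05, adjusted p = 2.11e-05). Fgf4, the growth factor the cells make themselves, went from 11.53 and 11.62 to 10.41 and 10.36 (-1.19 ± 0.05), and the Akt coactivator Tcl1 from 11.09 and 11.15 to 9.99 and 9.91 (-1.17 ± 0.05). The groups did not overlap in any of the 3 genes, and the replicates lay close together. The GTPase Mras (-1.16), the methylcytosine dioxygenase Tet2 (-1.12) and the homeobox gene Gbx2 (-1.02) completed the 2-fold falls. Of the transcription factors, Prdm14 fell by 0.84, Nr5a2 by 0.72, Esrrb by 0.67, Klf2 by 0.45, Klf4 by 0.44, Tbx3 by 0.42, Klf5 by 0.35 and Tfcp2l1 by 0.33. In the pathway of leukaemia inhibitory factor, the receptor Lifr fell from 10.38 and 10.34 to 9.71 and 9.56 (-0.73 ± 0.06), its mediator Stat3 by 0.26 and the feedback inhibitor Socs3 by 0.21, while the shared subunit Il6st did not pass at -0.07. The call of Socs3 was lost with some array left out and with the replicate block (adjusted p = 0.0686), and the mean of its probe sets gave -0.06. Dppa3, a maternal factor that protects DNA methylation, was the naive gene that rose, from 7.65 and 7.72 to 7.96 and 8.09 (0.34 ± 0.07).

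**Figure D2:**
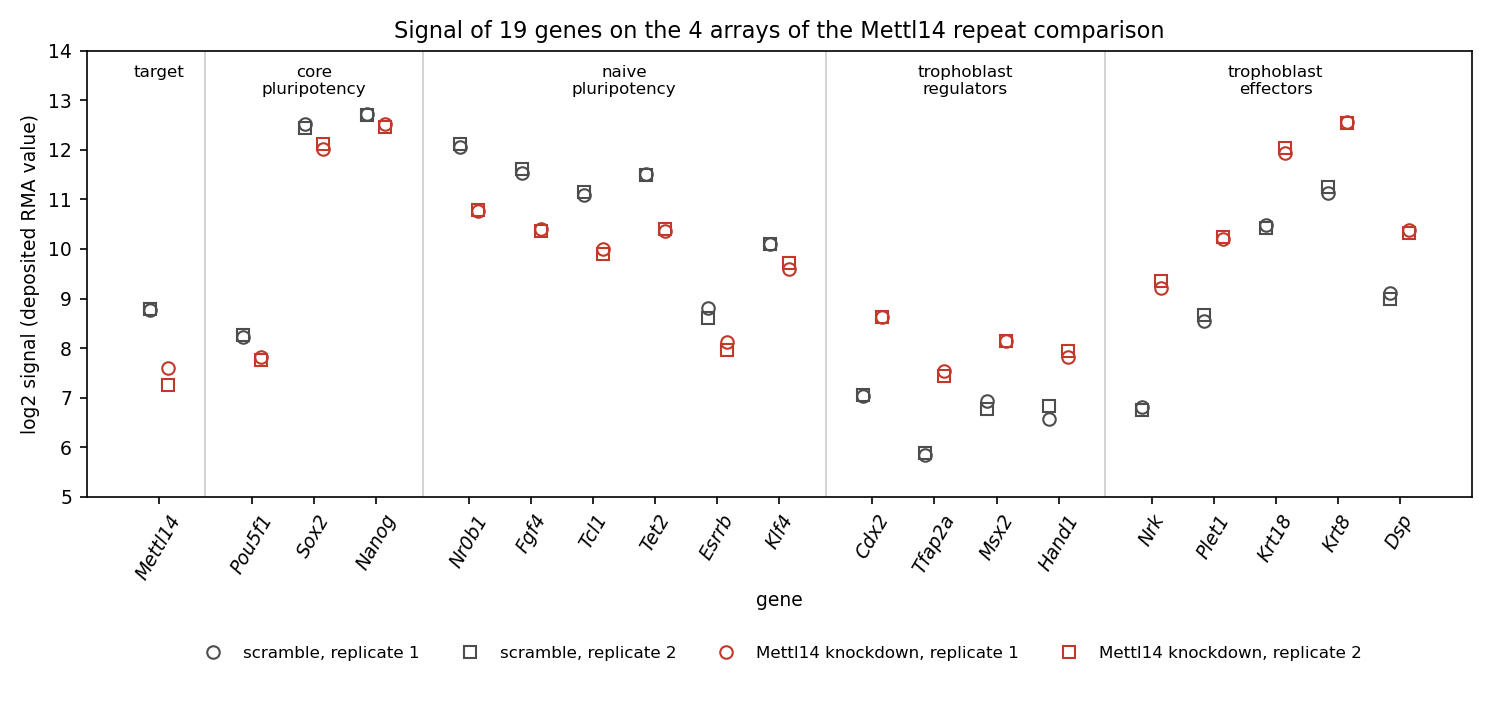
Log2 signal (vertical axis) of Mettl14 and of pluripotency and trophoblast genes (horizontal axis) on each array, grey for scramble and red for Mettl14 knockdown, with circles for replicate 1 and squares for replicate 2. Replicates of most genes nearly coincide. Nr0b1 reads 12.06 in scramble replicate 1 and 10.78 in knockdown replicate 1, and Nrk 6.82 and 9.21. Arrays of the same replicate number were not treated as pairs.

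Primed epiblast genes were split, with 6 of 14 higher and 2 lower (median 0.13). Fgf5, the classical marker of the primed state, rose from 7.13 and 7.0 to 8.40 and 8.48 (1.38 ± 0.08, adjusted p = 6.34e-05). Sema6a, a guidance molecule, rose by 1.03 ± 0.09, the Wnt effector Lef1 by 0.81 ± 0.09, the activin antagonist Fst by 0.74 ± 0.06, N-cadherin (Cdh2) by 0.47 ± 0.06 and the methyltransferase gene Dnmt3b by 0.25 ± 0.05. Otx2, a leading factor of the primed state, read 9.02 and 8.96 in scramble and 8.99 and 9.03 in the knockdown, and the groups overlapped (0.02 ± 0.05). Dnmt3a fell by 0.34 ± 0.05.

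Trophoblast genes rose. Of 17 regulators tested, 10 rose and 1 fell (median 0.35), and of 18 effector genes, 13 rose and 3 fell (median 0.72), with 4 and 5 rising at least 2-fold beside 1.01% of all genes. Without replicate 2 of the scramble control 8 regulators and 13 effectors were higher. Cdx2, the homeobox factor of the trophectoderm, read 7.04 and 7.05 in scramble and 8.63 and 8.64 in the knockdown (1.59 ± 0.08, adjusted p = 3.9e-05). Tfap2a, an AP-2 factor, rose from 5.85 and 5.87 to 7.53 and 7.44 (1.63 ± 0.09), Msx2 from 6.93 and 6.77 to 8.14 and 8.15 (1.30 ± 0.12), and the giant cell factor Hand1 from 6.56 and 6.83 to 7.83 and 7.93 (1.19 ± 0.13). In these 4 genes the knockdown arrays were about 2-fold or more above the controls with no overlap. Both scramble arrays of Tfap2a lay below the lowest mean signal that was tested (6.00), so that its fold rests on a dim control. Esx1 (0.96), Eomes (0.49), Dlx3 (0.41), Ets2 (0.35), Ascl2 (0.33) and Tead4 (0.31) rose less, and the calls of Dlx3, Ascl2 and Tead4, and of Tfap2c below, were lost with some array left out. Tfap2c, the AP-2 factor already active in stem cells, fell from 8.85 and 8.72 to 8.61 and 8.57 (-0.20 ± 0.05). Gata2 (0.40 ± 0.17), Gata3 (-0.28 ± 0.09), Id2, Elf3, Sox21 and Bmp4 did not pass, and Elf5 was too dim to be tested. The direction of Gata3 depended on its probe sets: their mean gave 0.33 (adjusted p = 0.0245).

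Among the trophoblast effectors, the surface protein Plet1 rose from 8.54 and 8.66 to 10.20 and 10.24 (1.62 ± 0.06), and the simple keratins Krt18 from 10.49 and 10.42 to 11.94 and 12.04 (1.54 ± 0.05) and Krt8 from 11.13 and 11.25 to 12.56 and 12.54 (1.36 ± 0.05). The knockdown arrays were more than 2-fold above both controls for each of the 3. The desmosomal protein Dsp rose by 1.29 ± 0.06, but its level also differed between the scramble controls of the set, by 0.53 (adjusted p = 0.024). Krt7 (0.75), Krt19 (0.74), the endocytic adaptor Dab2 (0.73), Pof1b (0.72), Wnt7b (0.72), the imprinted placental gene Peg10 (0.69), the tight junction protein Cgn (0.68) and Plac1 (0.55) rose as well. The connexin gene Gjb5 fell by 0.81, the sodium pump subunit Atp1b1 by 0.24 and the receptor Fgfr2 by 0.19, while Lgals3 (-0.00) and Itga7 (0.13) did not pass. The calls of Plac1 and Fgfr2 were lost with some array left out.

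Simple epithelial and adhesion genes moved with these: 12 of 16 rose and 2 fell (median 0.41). The tight junction genes Cldn7 (1.07 ± 0.07), Cldn6 (0.81 ± 0.05) and Cldn4 (0.49 ± 0.04) rose, as did the desmosomal cadherin Dsg2 (0.80 ± 0.05). E-cadherin (Cdh1) rose slightly, from 12.36 and 12.36 to 12.59 and 12.58 (0.22 ± 0.04), and Epcam did not pass (0.08 ± 0.06). The falls were those of Ceacam1, given above, and of Icam1, a ligand of leukocyte integrins, at -0.55 ± 0.04.

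Markers of fibroblasts, which formed the feeder layer, rose in 8 of 18 tested members and fell in 1 (median 0.09), and Postn, Lum, Dcn, Lox and Fap were too dim to be tested. The sum of their signals on the linear scale was 7458 and 7429 in scramble and 9356 and 9129.6 in the knockdown, with no overlap. Of the 7 collagen genes of the list, Col5a1 rose by 0.69 ± 0.09, and Col1a1 (0.05), Col1a2 (-0.10), Col3a1 (0.05), Col5a2 (-0.03), Col6a1 (0.03) and Col6a2 (0.14) did not pass. The matrix protein Sparc rose from 9.18 and 9.16 to 10.07 and 10.03 (0.88 ± 0.04), Tagln, an actin-binding protein, by 0.83 ± 0.07 and Fstl1 by 0.58 ± 0.05. Bgn fell by 0.31 ± 0.04, a gene that was also higher in this scramble control than in that of Mettl3, by 0.94 (adjusted p = 0.0016). The mean of its probe sets gave -0.12 and did not pass (adjusted p = 0.0669 by limma). The part of feeder RNA in the changes of the other lists was not tested.

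Of 41 tested genes of the embryonic germ layers, 10 rose (24.4%) and 9 fell (22.0%), beside 19.4% and 16.9% of all genes. Neural genes rose in 3 and fell in 5 of 12 cases (median -0.00), with the neural factor Sox1 at -0.89 ± 0.06 and the tubulin Tubb3 at -0.73 ± 0.09, against Nefm at 0.60 ± 0.12 and Sox11 at 0.53 ± 0.07. Mesoderm and primitive streak genes rose in 4 and fell in 1 of 14 cases (median 0.17). The ligand Wnt3 rose from 6.83 and 6.87 to 8.07 and 7.78 (1.07 ± 0.10), Fgf8 from 6.32 and 6.45 to 7.36 and 7.33 (0.96 ± 0.06) and Mixl1 from 7.09 and 6.89 to 7.52 and 7.75 (0.65 ± 0.11). Replicates of the knockdown differed by up to 0.29 in these genes, and the groups did not overlap. Endoderm genes rose in 3 and fell in 3 of 15 cases (median 0.04), 20% each way and near the share of all genes, the laminin chain Lama1 by -0.99 ± 0.07, the receptor Cubn by -0.89 ± 0.08 and the collagen chain Col4a1 by 0.60 ± 0.08. Gata4 fell by 0.34 ± 0.09, a call lost with either scramble array or replicate 2 of the knockdown left out (to -0.21), and Foxa2 did not pass (0.04 ± 0.07). The call of Nefm was also lost with some array left out. Of 9 Hox genes bright enough to test, 2 rose (22.2%, near the 19.4% of all genes) and 0 fell by limma, Hoxb9 at 0.28 and Hoxd8 at 0.24. Both calls were lost with some array left out.

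Germline genes fell in 6 and rose in 2 of 16 cases (median -0.13). Beside Morc1, the germ cell transcription factor Sohlh2 went from 8.28 and 8.36 to 6.67 and 6.91 (-1.53 ± 0.09), and Mael, of the piRNA pathway, from 7.98 and 8.07 to 7.17 and 7.41 (-0.74 ± 0.10). Dazl, which binds RNA in germ cells, and Tdrd12 fell by 0.59 and 0.57. Sycp1, of the synaptonemal complex, rose by 0.37 ± 0.07 but differed between the scramble controls by -0.62 (adjusted p = 0.024). Of 7 two-cell-like genes, which mark a rare state resembling the embryo after its first cleavage, 5 fell (median -0.63). Zscan4b went from 9.79 and 9.91 to 8.85 and 8.78 (-1.03 ± 0.07), Zscan4e from 10.55 and 10.63 to 9.84 and 9.82 (-0.76 ± 0.05) and Zscan4c from 9.05 and 9.37 to 8.49 and 8.29 (-0.82 ± 0.13). The groups of each did not overlap. Zscan4b and Zscan4e were also lower in this scramble control than in that of Mettl3, by -0.58 and -0.50 (adjusted p = 0.027 and 0.018). Probes of these close copies can bind the RNA of more than 1 of them.

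In the Hippo pathway, 11 of 16 genes rose and 1 fell (median 0.50). The pathway's kinases hold the coactivators YAP and TAZ in the cytoplasm, and in the nucleus these act through TEAD factors on genes such as Ccn1. Upstream, the adaptor Amot rose from 7.18 and 7.41 to 9.11 and 9.11 (1.82 ± 0.11), the kinase Lats2 from 6.92 and 6.71 to 8.48 and 8.34 (1.60 ± 0.10), Amotl2 by 0.81 ± 0.04, Ajuba by 0.45 ± 0.04 and Lats1 by 0.22. Nf2, the tumour suppressor that activates the kinases, fell by 0.59. The coactivator gene Wwtr1 (TAZ) rose by 0.74, Yap1 did not pass at 0.09, Tead3 rose by 0.67 ± 0.05 and Tead2 by 0.24 ± 0.04, and Tead1 did not pass at 0.08. Among the targets, Ccn1 rose from 9.86 and 9.89 to 11.11 and 11.16 (1.26 ± 0.05, adjusted p = 2.11e-05), Axl by 0.95 ± 0.06 and Ankrd1 by 0.55, whereas Ccn2 did not pass at 0.09.

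The bases that TEAD factors are known to bind, GGAATG, were searched on both strands of the RefSeq promoters (build GRCm38.p6), which run from 250 bases before to 50 after each annotated start. Of the 14 members with a promoter in that table, 9 held the motif (64.3%), beside 14.6% of the 11531 tested genes with one. The list was drawn to hold known targets of these factors, so a high share was partly fixed in advance and is no test. Of the 11 members that rose, 8 held the motif, beside 0 of the 1 that fell and 1 of the 2 not called. These are too few to compare. The promoters of Ccn1 (a target), Amotl2 (an adaptor) and Ajuba (a scaffold), which rose, are shown because they carry it. They are given as the 250 bases before the start, read along the gene's strand, with the reverse complement of the motif, CATTCC, in capitals.
Ccn1 promoter, chr3:145649986-145650235, minus strand: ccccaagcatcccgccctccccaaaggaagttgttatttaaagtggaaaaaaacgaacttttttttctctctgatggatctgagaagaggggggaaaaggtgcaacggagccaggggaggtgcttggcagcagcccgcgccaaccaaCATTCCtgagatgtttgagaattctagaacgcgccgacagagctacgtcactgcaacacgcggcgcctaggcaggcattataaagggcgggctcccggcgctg
Amotl2 promoter, chr9:102717554-102717803, plus strand: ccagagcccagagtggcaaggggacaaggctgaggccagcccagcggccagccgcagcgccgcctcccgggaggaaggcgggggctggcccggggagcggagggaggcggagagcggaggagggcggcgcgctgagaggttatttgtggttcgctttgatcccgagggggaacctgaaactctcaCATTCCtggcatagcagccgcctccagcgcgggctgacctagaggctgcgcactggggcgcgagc
Ajuba promoter, chr14:54577662-54577911, minus strand: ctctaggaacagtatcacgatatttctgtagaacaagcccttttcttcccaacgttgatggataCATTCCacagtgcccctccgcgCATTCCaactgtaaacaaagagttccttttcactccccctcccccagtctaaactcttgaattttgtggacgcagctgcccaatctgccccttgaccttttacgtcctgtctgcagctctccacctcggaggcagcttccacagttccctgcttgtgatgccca
The match begins 103 bases before the start in Ccn1 and 65 in Amotl2, and Ajuba has a pair of matches, at 186 and 164. The E-box CACGTG, searched the same way, lay in 7 of 15 germline genes (46.7%) beside 11.2% of tested genes, but in 2 of the 5 with a promoter that fell, Mael and Slc25a31. The AP-1 motif TGAGTCA, the TATA box (TATAAA) and a CArG box were searched too. Among the 112 genes at least 2-fold higher with a promoter these motifs lay, in that order, in 5.36%, 15.2% and 0%. The shares of tested genes were 4.54%, 9.41% and 0.0434%. GGAATG lay in 21.4% of the 112 and CACGTG in 5.36%, beside 14.6% and 11.2% of tested genes. Of the 61 genes at least 2-fold lower with a promoter, 5 held the AP-1 motif, 11 the TATA box and 0 the CArG box. GGAATG lay in 9 of these 61 and CACGTG in 6. The AP-1 motif and the TATA box were thus more frequent among the falls than among the rises. A match describes letters and was not measured as a binding site.

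Immediate early genes, which respond within minutes to growth factors and stress, rose in 14 and fell in 3 of 21 cases (median 0.48). Fosb read 9.32 and 9.25 in scramble and 10.48 and 10.47 in the knockdown (1.19 ± 0.05), Fos 8.71 and 8.71 against 9.74 and 9.78 (1.05 ± 0.05), and Zfp36, whose product destabilises AU-rich RNA, 9.29 and 9.09 against 10.24 and 10.23 (1.04 ± 0.07). None of these groups overlapped. Fosb and Fos were also higher in this scramble control than in the other one, by 0.63 and 0.36 (adjusted p = 0.01 and 0.048). Egr1 rose by 0.94 ± 0.05, Jun by 0.79 ± 0.05, Ier3 by 0.79 ± 0.05, the phosphatase Dusp1 by 0.56 ± 0.05 and Junb by 0.48 ± 0.04. Myc was among those that fell, at -0.37.

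In the Wnt pathway 10 of 27 genes rose (37.0%) and 4 fell (14.8%), beside 19.4% and 16.9% of all genes (median 0.16). The antagonist Dkk1 rose from 6.58 and 6.86 to 8.06 and 8.19 (1.40 ± 0.09), the ligand Wnt4 from 7.77 and 7.71 to 8.67 and 8.69 (0.94 ± 0.04), and the targets Sp5 and Axin2 by 0.76 ± 0.07 and 0.72 ± 0.05. Wls, given above, was the largest. The receptor Fzd5 fell by 0.79 ± 0.06, and Ctnnb1, which encodes beta-catenin, did not pass (-0.04). In the TGF-beta and Nodal pathway 11 of 23 rose and 7 fell (median 0.10). Among the ligands and receptors that rose, Tgfb2 went from 6.68 and 6.75 to 8.57 and 8.65, Tgfb3 rose by 0.62, Tgfb1 by 0.45 and the coreceptor Tgfbr3 by 0.94. The genes that fell were Inhbb, Tdgf1, Inhba, Nodal, Skil, Pmepa1 and Acvr1b. The inhibin subunit Inhbb fell from 8.00 and 8.29 to 6.94 and 7.13 (-1.11 ± 0.10) and the Nodal coreceptor Tdgf1 by 0.35, while the Nodal antagonists Lefty2 and Lefty1 rose by 0.54 and 0.33.

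Of 15 BMP and Id genes, 8 rose and 1 fell (median 0.26). The ligand Bmp8b rose from 6.63 and 6.56 to 7.59 and 7.57 (0.98 ± 0.04), the targets Id3 and Id1 by 0.83 ± 0.06 and 0.41 ± 0.04, and the receptors Bmpr2 and Bmpr1a by 0.49 and 0.26. The antagonist Grem1 fell by 0.50, and was higher in this scramble control than in the other by 0.62 (adjusted p = 0.018). Insulin-like growth factor genes rose in 9 and fell in 1 of 12 cases (median 0.64). The ligand Igf2 rose from 8.54 and 8.46 to 9.93 and 9.97 (1.45 ± 0.05, adjusted p = 2.11e-05), the adaptor Irs2 from 8.77 and 8.67 to 9.84 and 9.79 (1.10 ± 0.06), and the receptors Igf1r and Insr by 0.75 ± 0.05 and 0.61 ± 0.04. Ligand, receptors and adaptor were thus higher together in both knockdown arrays. Of the binding proteins, Igfbp6 and Igfbp3 rose by 0.85 and 0.62, and Igfbp2 fell by 0.15.

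FGF and ERK genes fell in 8 and rose in 3 of 18 cases (median -0.09). Fgf15, a growth factor of the stem cell and embryo, went from 10.12 and 10.14 to 8.87 and 8.76 (-1.31 ± 0.05). The feedback inhibitors did not move together: Spry2 fell by 0.58 ± 0.04 and Spry4 by 0.53 ± 0.04, whereas Spry1 rose by 0.50 ± 0.04 and the phosphatase Dusp4 from 8.81 and 8.75 to 9.73 and 9.79 (0.98 ± 0.05). Dusp6, often read as a measure of ERK activity, did not pass (0.09 ± 0.05), and the receptor Fgfr1 rose by 0.48 ± 0.04.

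Targets of p53 fell in 7 and rose in 3 of 17 cases (median -0.03): the epoxide hydrolase Ephx1 went from 9.20 and 9.19 to 8.28 and 8.25 (-0.93 ± 0.10) and Eda2r fell by 0.46, while the cell cycle inhibitor Cdkn1a rose by 0.33 ± 0.05 and Plk2 by 0.34 ± 0.06. Of 17 apoptosis genes, 7 rose and 1 fell (median 0.09). The initiator caspase Casp8 stood apart, from 7.50 and 7.44 to 9.15 and 9.16 (1.68 ± 0.09, adjusted p = 5.09e-05). The antagonists Bcl2l1 (BCL-XL) and Bcl2l11 (BIM) rose by similar sizes, 0.50 and 0.51. Genes of the amino acid stress factor ATF4 fell in 8 and rose in 0 of 17 cases by limma (median -0.15), with Trib3 at -0.43 and the arginine transporter Slc7a3 at -0.40. Interferon and immune genes rose in 9 and fell in 3 of 17 cases (median 0.17). Isg15, Ifit1, Irf7, Oasl2 and H2-T23 of this list were too dim to be tested. The list was chosen with earlier results of these data known, and it holds Ltb and Parp8, which are among the largest rises given above. Beside Ltb and Parp8, the cytokine Tnf rose from 6.21 and 6.29 to 7.42 and 7.42 (1.17 ± 0.09), the class I molecule H2-K1 from 9.56 and 9.60 to 10.70 and 10.68 (1.11 ± 0.05) and its partner B2m from 12.00 and 11.93 to 12.57 and 12.59 (0.62 ± 0.05), while the membrane protein Ifitm3 fell by 0.30.

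Of 15 Polycomb genes, 8 fell and 1 rose (median -0.19), among them the core subunit Eed at -0.47 ± 0.04, Epop at -0.40 ± 0.06, Mtf2 at -0.39 ± 0.04 and Jarid2 at -0.27 ± 0.04, with Ring1 higher by 0.48 ± 0.07 and Rnf2 not passing (-0.02). Of the DNA methylation enzymes, Tet1 fell by 0.65 and Tet2 by 1.12, as given for the naive list, Tet3 rose by 0.18 and Dnmt1 did not pass (-0.07). Imprinted genes rose in 8 and fell in 3 of 18 cases (median 0.10). The zinc finger gene Plagl1 rose from 7.42 and 7.18 to 8.45 and 8.56 (1.20 ± 0.08), Peg3 from 10.14 and 10.08 to 10.99 and 10.98 (0.88 ± 0.05) and Sgce by 0.79 ± 0.06, while Ddc fell by 0.70.

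Calls among cell cycle genes were mostly downward and small. Mitosis genes fell in 10 and rose in 0 of 23 cases by limma (median -0.11), led by Nusap1 at -0.45 ± 0.05 and Bub1b at -0.38 ± 0.04, with Ccna2 (-0.12) and Plk1 (-0.11) not passing. Replication genes fell in 7 and rose in 2 of 22 cases (median -0.10), with Pola1 at -0.44. Of 18 cyclins and inhibitors of G1, 7 fell and 4 rose (median -0.03): the pocket protein genes Rbl2 and Rb1, which restrain entry into S phase, fell by 0.95 and 0.54, Cdkn1b by 0.35 and Ccnd2 by 0.51, while Cdk6 rose by 0.42 and Cdk4 did not pass (-0.05). Long-lived metabolic and cytoskeletal transcripts, used as a reference, rose in 2 and fell in 1 of 32 cases (median -0.04). Gapdh read 13.75 and 13.76 in scramble and 13.72 and 13.71 in the knockdown, and Actb rose by 0.15 ± 0.05.

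**Figure D3:**
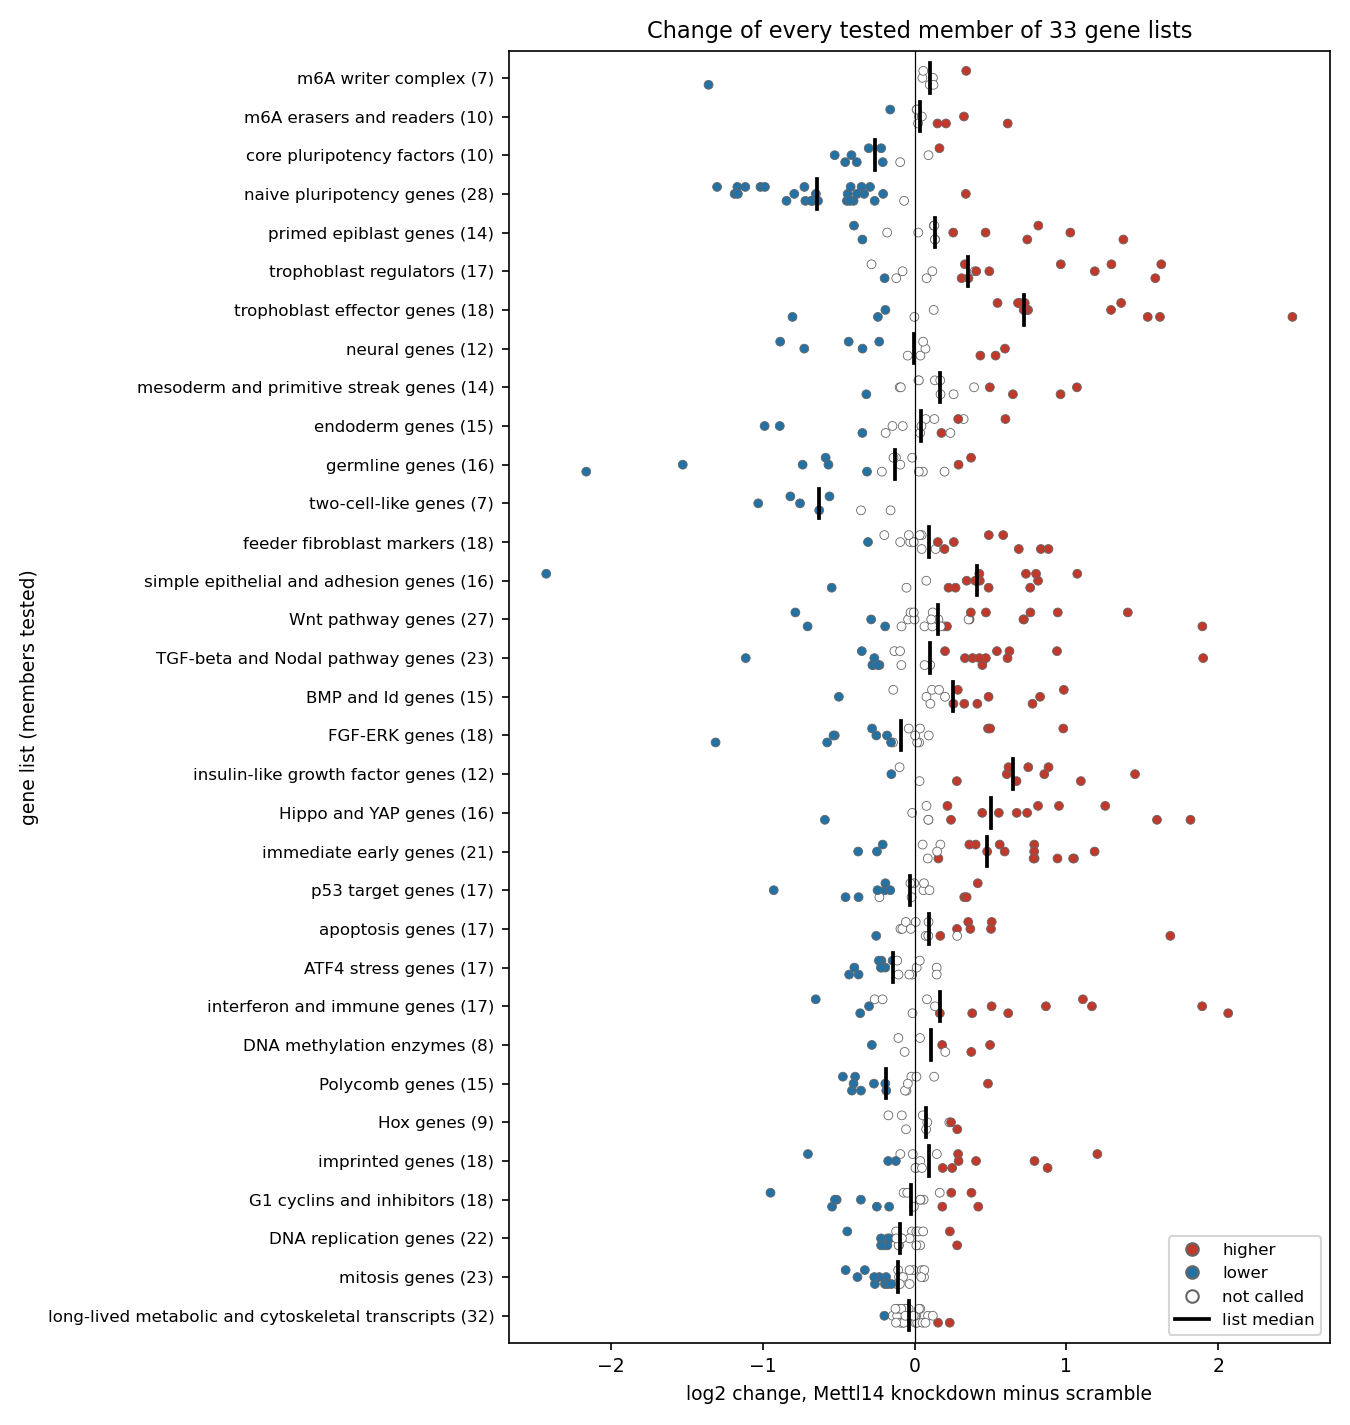
Log2 change after Mettl14 knockdown (horizontal axis) of every tested member of each gene list (vertical axis, number tested in brackets), red where higher, blue where lower and white where not called, with a bar at the list's median. Naive genes lie almost wholly to the left (median -0.64), and trophoblast effectors (0.72) and insulin-like growth factor genes (0.64) have the medians farthest to the right.

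The scramble controls of the set are described alike. By limma, the control of Mettl14 was higher than that of Mettl3 in 61 genes (0.413%) and lower in 38 (0.257%). In either direction, 0 of these genes were 2-fold apart. An unadjusted p under 0.05 in limma was reached by 2369 of the 14787 genes, more than the share of 0.05 that no difference would give. Bgn (0.94), the opioid precursor Penk (0.87), Irf2 (0.76), Nt5e (0.68), Apln (0.67) and Btbd35f1 (0.64) were the largest higher, and Pramel19 (-0.81), Fgfr2 (-0.72), Nlrp9b (-0.71), Rhox6 (-0.67), Rasgrp2 (-0.63) and Sycp1 (-0.62) the largest lower. Of the genes described above, Krt19 (0.48), Ier3 (0.45), Igfbp3 (0.36), Igfbp2 (0.35), Wnt4 (0.32), Cldn4 (0.30), Bmp4 (-0.34), Spink1 (-0.38) and Cubn (-0.61) also passed between the controls. Nearly all of these calls were lost with any scramble array of the set left out, not only with replicate 2 of the Mettl14 scramble. Such a fit leaves 1 array in a group.

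The Mettl3 knockdown of the set, tested against its own control, had 2642 genes higher (17.9%) and 2571 lower (17.4%). The effects of the knockdowns differed in 449 genes (3.04%): 227 changed more upwards after Mettl14 knockdown (1.54%) and 222 more downwards (1.5%), of which 9 (0.0609%) and 17 (0.115%) differed at least 2-fold. With any 1 of the 8 arrays left out, 37 to 84 and 51 to 92 genes passed, the fewest without replicate 2 of the Mettl14 scramble. Nrk rose by 2.49 after Mettl14 and by 1.03 after Mettl3 knockdown (adjusted p of the difference 0.0073), and Pmp22 by 2.24 and 1.05 (0.0092). Trophoblast genes took part in the difference: 7 of 35 in both lists changed more upwards and 1 more downwards. Cdx2 rose by 1.59 against 0.88 (0.027), Plet1 by 1.62 against 0.70 (0.006) and Lats2 of the Hippo list by 1.60 against 0.64 (0.024). Pof1b, a junction protein, was the reverse, at 0.72 against 2.10 (0.0039).

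Several genes changed in opposite directions. Nkx2-9 fell from 8.83 and 8.72 to 7.72 and 7.42 after Mettl14 knockdown (-1.21 ± 0.10) and rose by 0.57 after Mettl3 knockdown, and the interferon-linked Parp12 rose by 0.49 and fell by 0.52. The zinc transporter Slc39a8 changed by -0.40 and 1.00, and Penk by -0.33 and 0.98. Penk, however, was the gene whose controls differed by 0.87, and the part of that control difference was not tested. Among the primed genes, Otx2 rose after Mettl3 knockdown by 0.81 and not after that of Mettl14 (adjusted p of the difference 0.006), and 5 of 14 primed genes changed less upwards after Mettl14 knockdown. Foxa2, an endoderm factor, changed by 0.04 and 0.84 (0.011) and the lipoprotein gene Apob by 0.32 and 1.88 (0.011). Of the growth factors, Fgf15 changed by -1.31 after Mettl14 and by -0.18 after Mettl3 knockdown (0.0039). For the naive genes the tests found 2 differences among 28, 1 in each direction: Nr0b1 changed by -1.30 against -0.82 (0.018), and Dppa3 changed by 0.34 against -0.17 (0.04).

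**Figure D4:**
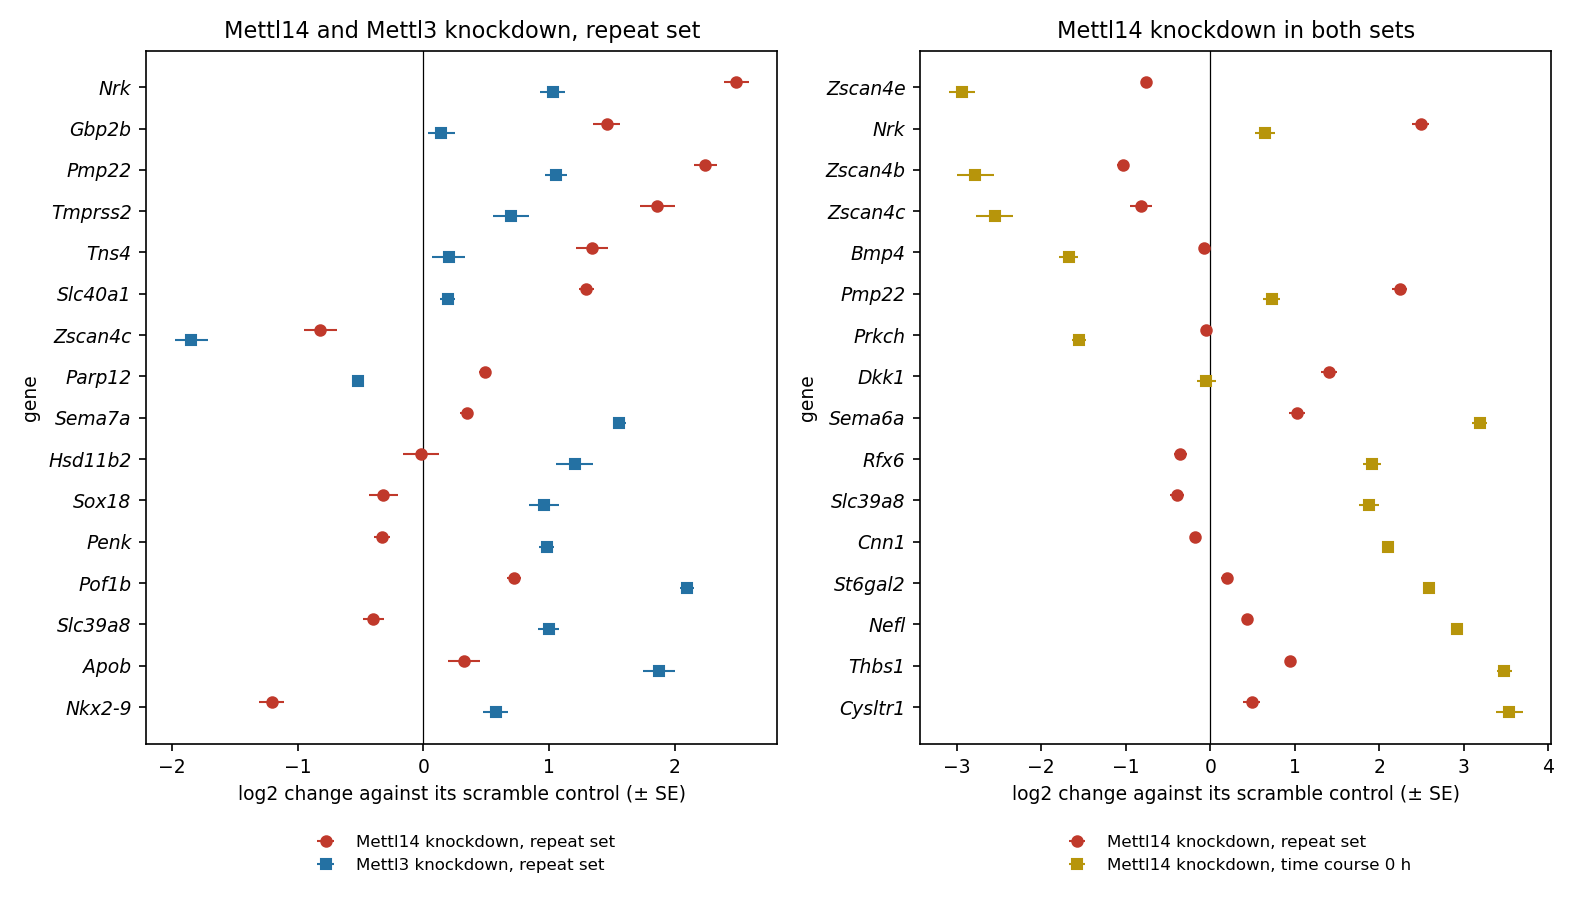
Log2 change of each knockdown against its scramble control (horizontal axis, bars are the standard error) of the genes (vertical axis) that differ most, Mettl14 knockdown of the repeat set in red, Mettl3 knockdown of the repeat set in blue (left) and Mettl14 knockdown of the time course at 0 h in yellow (right). Nrk lies at 2.49 in the repeat set, beside 1.03 after Mettl3 knockdown and 0.65 in the time course.

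Against the Mettl14 knockdown of the time course at 0 h, which had its own scramble arrays, 1277 genes changed more upwards in the repeat set (8.64%) and 1162 more downwards (7.86%), by limma over all 26 arrays. Of these, 36 (0.243%) and 133 (0.899%) differed at least 2-fold. In the time course itself 43.3% of genes passed in that fit, 20.9% higher and 22.3% lower, and 2.27% and 0.832% did so at least 2-fold. With the spread from all 26 arrays, 2638 genes were higher and 2272 lower in the repeat set, whose shares above rest on 8 arrays. Mettl14 itself changed by -1.36 here and -1.70 there, a difference of 0.34 ± 0.19 that did not pass (adjusted p = 0.25). The groups differ in set as well as in whatever else separated the experiments, and these cannot be told apart. Several trophoblast genes changed more upwards here: Cdx2 by 1.59 here and 0.41 there (adjusted p of the difference 0.00014), Hand1 by 1.19 and 0.21 (0.0065), Msx2 by 1.30 and 0.30 (0.0029) and Nrk by 2.49 and 0.65 (1.2e-06). Keratins ran the other way, Krt8 by 1.36 here and 2.34 there (5e-08), Krt18 by 1.54 and 2.24 (4.2e-06) and Krt19 by 0.74 and 2.08 (7.4e-07). Of 17 regulators, 8 changed more upwards here and 2 more downwards, and of 18 effectors, 7 and 6.

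Targets of p53 differed between the experiments: 13 of 17 changed more downwards here than in the time course, and 2 more upwards. Eda2r fell by 0.46 here and changed by 0.70 there (adjusted p of the difference 1.5e-06), Ei24 by -0.24 and 0.39 (1.1e-05), Cdkn1a rose by 0.33 and 1.32 (0.00015) and Plk2 by 0.34 and 1.91 (3.8e-07). The matrix glycoprotein Thbs1 rose by 0.94 here and 3.48 there (1e-09), Tagln by 0.83 and 2.22 (1.1e-07), Acta2 by 0.15 and 1.03 (1.2e-05), and the smooth muscle protein Cnn1 changed by -0.18 and 2.10 (5e-11). Of 14 primed genes, 9 changed more downwards here than in the time course and 0 more upwards by limma, with Fgf5 at 1.38 and 3.02 (3.1e-06). Naive genes differed in both directions, 13 of 28 falling less here and 5 more: Nanog changed by -0.22 here and -0.72 there (3.2e-05), Tfcp2l1 by -0.33 and -1.09 (5.6e-06) and Klf4 by -0.44 and -1.20 (0.00049), against Nr0b1 by -1.30 and -0.50 (2.2e-07) and Fgf4 by -1.19 and -0.49 (0.00062). Zscan4e changed by -0.76 here and -2.94 there (4.1e-06). Dkk1 rose by 1.40 here and changed by -0.05 there (1.2e-05), and Bmp4 changed by -0.08 here and -1.68 there (4.5e-06), and differed between the scramble controls of the repeat set by -0.34 (adjusted p = 0.0355). Some strong falls were close in size: Ceacam1 read -2.43 here and -2.44 there (difference 0.02 ± 0.11), Pla2g1b -2.02 and -1.86 (-0.16 ± 0.20) and Prss42 -1.37 and -1.54 (0.17 ± 0.19).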

How the data were processed

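RNA from 26 samples was measured on Affymetrix mouse gene arrays. The values are log2 signals, deposited by the authors after RMA (background correction, quantile normalization and probe set summary) with oligo, per the submitters' processing notes. Whether all arrays were normalized in 1 run is not given in the sources used here. Of 41345 probe sets, 23521 have exactly 1 gene symbol, 1814 have several and 16010 are not listed in the annotation used. The brightest probe set stood for each of 22180 genes, and the 7393 dimmest by mean signal were left out, which left 14787. Groups came from titles and array codes. The knockdown was tested against its scramble with limma 3.58.1 (R 4.3.3; lmFit and eBayes) over the 8 arrays of the repeat set (4 residual degrees of freedom), and against the time course over all 26 (13). P-values were adjusted over all tested genes by Benjamini-Hochberg at 0.05. For the probe sets of Mettl3 and Tox4 and those with no listed gene, all 41345 probe sets were fitted and adjusted over. The procedure was tested on simulated data. The number of arrays limits the precision, and the counts of calls also depend on the filter and the variance model.

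Deviations of same-numbered arrays correlated between -0.05 and 0.04 across groups, and replicate numbers were not used to pair the samples. Whether same-numbered arrays were made together cannot be told from these correlations. Alternatives were the dim filter, the choice of probe set, the variance model, array weights, a replicate block, renormalization, other scalings, the arrays in the fit and each array left out. The gene lists and the rule for named genes were chosen with earlier results of these data known. The rule took the 15 largest rises and falls whose arrays did not overlap, every member of the m6A, pluripotency and trophoblast lists, and of every other list up to 6 members with the smallest adjusted p and up to 3 with the highest signal. It also took the 6 largest differences each way between the scramble controls and the 8 largest each way in both other comparisons. Predicted and small RNA genes were left out. Ankrd1, Ccn2, Lats1, Nf2, Wwtr1, Yap1, Myc, Slc25a31 and the collagens Col1a1, Col1a2, Col3a1, Col5a2, Col6a1 and Col6a2, and Inhba, Nodal, Skil, Pmepa1 and Acvr1b, were named after their values were seen.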

Additional observations from a re-analysis of the deposited data

Results flagged for a closer look

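The effect of Mettl14 knockdown differed from that of Mettl3 knockdown, by limma's test of the difference, in 227 genes upwards and 222 downwards. The largest upward differences in log2 change were those of Nrk (1.46), Gbp2b (1.31), Pmp22 (1.19), Tmprss2 (1.16), Tns4 (1.14), Slc40a1 (1.10), Zscan4c (1.03) and Parp12 (1.01). Slc40a1, the iron exporter, read 7.03 and 7.02 in scramble and 8.38 and 8.26 after Mettl14 knockdown, and Gbp2b, a guanylate-binding protein, 6.80 and 6.65 against 8.25 and 8.12. The largest downward differences were those of Nkx2-9 (-1.78), Apob (-1.55), Slc39a8 (-1.39), Pof1b (-1.38), Penk (-1.31), Sox18 (-1.28), Hsd11b2 (-1.22) and Sema7a (-1.21). Penk also differed between the scramble controls by 0.87, and the part of that in its value was not tested. With some array left out, the differences of Zscan4c, Tmprss2, Hsd11b2, Tns4, Apob, Sox18 and Gbp2b no longer passed.

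The effect of Mettl14 knockdown differed between the repeat set and the time course at 0 h in 1277 genes upwards and 1162 downwards. The largest upward differences were those of Zscan4e (2.18), Nrk (1.84), Zscan4b (1.75), Zscan4c (1.73), Bmp4 (1.60), Pmp22 (1.52), Prkch (1.5) and Dkk1 (1.45). The largest downward differences were those of Cysltr1 (-3.05), Thbs1 (-2.54), Nefl (-2.49), St6gal2 (-2.39), Cnn1 (-2.28), Slc39a8 (-2.28), Rfx6 (-2.27) and Sema6a (-2.16). Nefl, a neurofilament subunit, rose by 0.43 in the repeat set and 2.92 in the time course, and the leukotriene receptor Cysltr1 by 0.49 and 3.54. Rfx6 also differed between the scramble controls by 0.56, Bmp4 by -0.34, and Zscan4b and Zscan4e by -0.58 and -0.50.

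Of 6870 probe sets with no listed gene that were as bright as the tested genes, 195 were higher and 269 lower after Mettl14 knockdown, 24 and 28 of them at least 2-fold. These calls come from a fit of all 41345 probe sets, dim ones included, with p-values adjusted over all of them. They cannot be set against the shares of the tested genes, and the share called over all probe sets was not computed.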

How the results depend on the processing

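With 1 of the 8 arrays left out, the calls after Mettl14 knockdown ranged from 2075 to 2778 higher and 1646 to 2433 lower (fewest without replicate 2 of its scramble), at least 2-fold 149 to 159 and 79 to 82, naive genes lower 25 to 26, trophoblast regulators higher 7 to 11 and effectors 12 to 13, and Mettl14 itself from -1.53 to -1.19. The replicate block gave 2738 and 2375. An equal median of long-lived transcripts moved the share of calls that were higher from 53.5% to 59.4%. Counts for the difference from Mettl3 knockdown moved from 227 and 222 to 36 and 42 with no filter, 482 and 347 with the lowest 50% of genes left out, 805 and 582 with a trended robust variance, 132 and 141 with the replicate block, and 97 higher with the equal median. With 1 array left out they were 37 to 84 and 51 to 92. Counts between the scramble controls, 61 and 38, became 1 and 0, 202 and 136, 396 and 381, and 20 and 16 under the first 4 of these settings, 15 higher under the equal median, 66 lower with the spread of all 26 arrays, 0 and 0 with 4 arrays alone (2272 genes at an unadjusted p under 0.05 in limma), and 0 to 14 and 0 to 12 with 1 array left out. The difference from the time course had 744 higher under the equal median, and 876 to 1319 and 884 to 1041 with 1 array left out. The causes were not tested. Gata3 reversed to 0.33 with the mean of its probe sets, and genes that lost the call under that setting included Bgn and Fen1. Those that lost it with the spread of all 26 arrays included Lefty1, Nupr1, Pcgf1, Penk and Sycp1. The label correlation was -0.0248 with no filter, chosen after seeing the data.

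Of 278 named genes that passed, 48 lost the call with some array left out and 20 with the 4 arrays alone. Those lost with some array left out were Acta2, Actb, Apln, Apobec1, Ascl2, Bak1, Ccnb2, Ccne1, Cdc6, Cdx1, Cflar, Cox4i1, Dlx3, Etv5, Fgfr2, Fto, Gata4, Hnrnpc, Hoxb9, Hoxd8, Igfbp2, Kdr, Klf6, Mbd1, Mcm2, Mest, Nanog, Nefm, Nlrp9b, Nnat, Plac1, Pold1, Prc1, Rasgrp2, Rfx6, Ripk3, Shmt2, Smad4, Socs3, Stc2, Tead4, Tet3, Tfap2c, Trim71, Ttk, Ttr, Tuba1a and Ythdf3.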
